A study of Mus musculus with 17 samples.

Results

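Serpins are a family of proteins of 1 shared fold, and 63 mouse serpin genes other than Serpinf1 are described here across 17 bulk RNA libraries. The members were chosen by symbol alone (Serpin, a clade letter a to i, a number and an optional letter), with Serpinf1, which encodes PEDF, left out. All 63 were among the 24594 identifiers of the libraries labelled liver, 51 were also among the 33840 symbols of the intestinal libraries, and the other 12 were not analysed in the intestine. Of the 63, 62 were found in the GENCODE vM21 annotation, with 24 on chromosome 12, 15 on chromosome 13 and 14 on chromosome 1.

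The libraries fall into 7 groups of wild-type (WT) mice. Small intestine came from mice with a sham operation or with hepatectomy, in which liver is cut away. It was processed as IEC (intestinal epithelial cells) or as crypts, the pockets between villi where stem cells divide, with 2 libraries in each of these 4 groups. The other 3 groups are labelled liver, with DSS (dextran sulfate sodium, a compound that injures the colon lining) as the treatment at day 0, day 10 and day 20 alike, with 3 libraries per day. Age, sex and strain are not given in the sources used here, and nothing in the labels ties each library to its own mouse, so a p-value covers the spread between these samples and no more. The titles do not say whether sham and hepatectomy libraries were prepared together or in separate series, so the operation and such a series cannot be told apart.

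Most serpins inhibit serine or cysteine proteases: the protease cuts an exposed loop, the serpin changes shape, and the enzyme stays trapped in the complex. Clade A and several single-member clades are mostly secreted by hepatocytes into plasma, where they restrain neutrophil elastase, thrombin, plasmin and the complement protease C1s, and a few carry hormones in place of inhibiting. Clade B members lack a classical signal peptide, stay largely inside the cell and protect it from granule and lysosomal proteases. Serpinh1 (HSP47) is a collagen chaperone of the endoplasmic reticulum and inhibits no protease.

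Total counts per library were 26609786 to 43580050 for the intestine and 12742629 to 42669857 for the liver label, which was set against tissue markers. Alb, the main hepatocyte product, stood between 34808 and 37893 CPM (counts per 1e+06 of all counts in a library) at day 20, at 309 to 487 CPM at day 0, at 438 to 1897 CPM at day 10 and at 0.291 CPM or less in the intestine. Summed over 7 Paneth cell markers, the libraries held 40264 to 47343 CPM at day 0 and 10492 to 99132 CPM at day 10, against 246 to 330 CPM at day 20. At day 0 and day 10 the markers are thus those of gut epithelium more than of liver, and these libraries are named below by label alone. Xist, a transcript of female cells, was 393 to 580 CPM at day 10, 23.7 to 32.6 CPM at day 0 and 1.28 CPM or less at day 20. Eif2s3y, a Y-linked gene, was 0.492 to 3.14 CPM at day 10 against 43 to 47.2 CPM at day 0 and 43.9 to 46.9 CPM at day 20. Day 10 thus differed from both other days in transcripts of sex, and in comparisons with day 10 the day and that difference cannot be told apart. Day 0 and day 20 were alike in Eif2s3y but not in Xist, so they too are not fully matched in these transcripts. Replicate 3 of day 10 stood apart, with 12742629 counts, 1897 CPM of Alb and 1091 CPM over 1094 olfactory receptor genes, against 386 CPM in the lowest library of that day. In bulk samples, fewer cells of a type and less RNA per cell cannot be told apart.

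A group was taken to hold a member when each of its libraries had at least 1 CPM. By that measure sham IEC held 9 members, sham crypts 7, hepatectomy IEC 8 and hepatectomy crypts 7, against 22, 24 and 31 at day 0, day 10 and day 20. Serpinb1a, Serpinb6a, Serpinb9, Serpina1b and Serpinf2 were the 5 held by every one of the 7 groups. Serpinb5 (maspin, a clade B member with no known protease target) was the further member held by all 4 intestinal groups. At least 1 intestinal group held 11 members, which adds Serpina1c, Serpina1e, Serpina3g, Serping1 and Serpini1 (neuroserpin). No group held 28 of the 63, among them 11 of the 12 not analysed in the intestine, and 13 had at most 3 counts in every intestinal library. A member with no count in a library may still have a level of up to 3 counts there, a floor that reflects counting error alone.

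**Figure D1:**
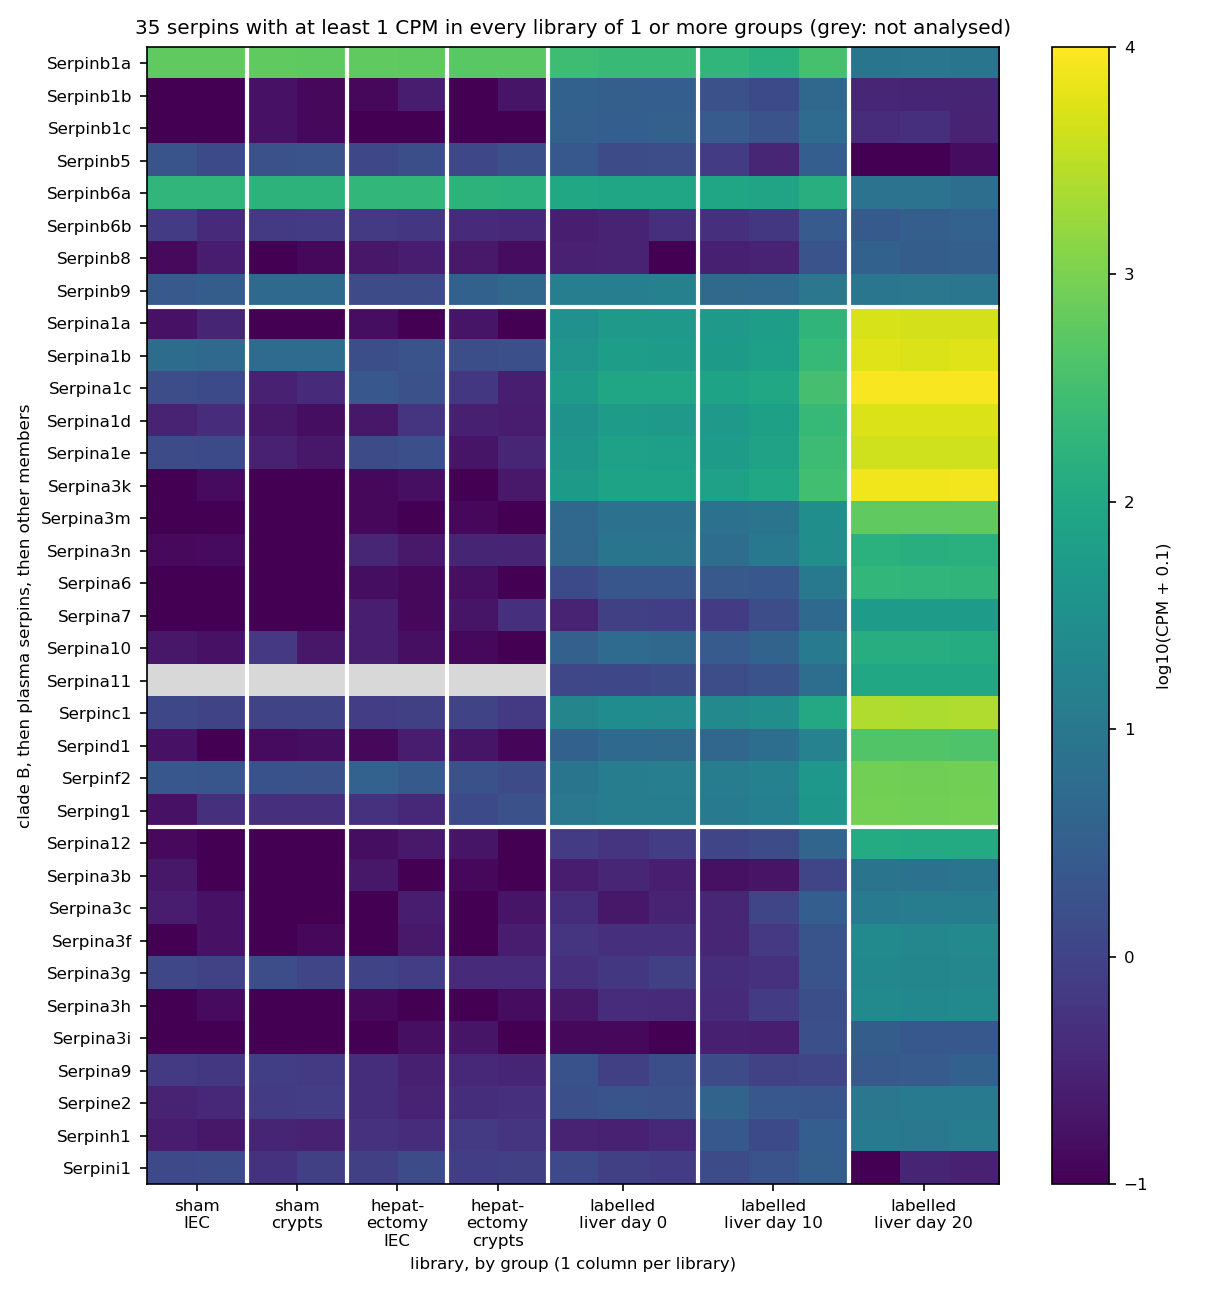
Log10 of CPM + 0.1 for the 35 serpins held by at least 1 group (rows), in 17 libraries (columns, white lines between groups), with clade B on top, the secreted plasma serpins in the middle and the others below. Serpinb1a and Serpinb6a are bright in the intestinal, day 0 and day 10 columns, while the plasma serpins are bright in the 3 day 20 columns, at intermediate levels at day 0 and day 10 and mostly dark in the intestine. Serpina11 was not analysed in the intestine.

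Nearly all serpin transcripts of the intestinal libraries came from 2 clade B inhibitors. Serpinb1a (leukocyte elastase inhibitor, chromosome 13, 32842092 to 32851185, minus strand, mm10) stood at 604 and 600 CPM in sham IEC and 592 and 564 CPM in sham crypts. After hepatectomy it was 590 and 563 CPM in IEC and 522 and 535 CPM in crypts. Serpinb6a (an inhibitor of cathepsin G and other serine proteases, chromosome 13, 33917918 to 34002794, minus strand) stood at 195 and 193, 169 and 170, 202 and 204, and 174 and 159 CPM in the same order. Both are high in all 8 libraries, and together they were 97.3 to 97.8% of the serpin CPM of a library, while the other 49 members summed to 15.5 to 21.5 CPM. Per kilobase of merged exons, which allows levels of different genes to be compared, Serpinb1a stood at 261 ± 1.23 CPM (SD, n = 2) and Serpinb6a at 35.9 ± 0.361 CPM in sham IEC, and the next member, Serpina1b, at 2.23 ± 0.201 CPM. Serpinb6a overlaps Nqo2, Ripk1 and 1110046J04Rik, and with no stated strand its count is uncertain. The coding sequences of the 3 mouse Serpinb1 genes are 86.1 to 89.8% identical, yet Serpinb1b and Serpinb1c had at most 0.148 CPM in any intestinal library.

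The other clade B members of the gut were low. Serpinb9, which inhibits granzyme B and shields cells from it, stood at 2.36 and 2.89 CPM in IEC of sham mice and 1.3 and 1.33 CPM after hepatectomy. Crypts held 4.96 and 4.98 CPM in sham and 3.46 and 4.52 CPM after hepatectomy. Both crypt groups thus lay above both IEC groups. Serpinb5 ranged from 1.11 to 1.89 CPM over the 8 libraries and passed the test in none of the 4 intestinal comparisons.

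The comparison of sham crypts with sham IEC asks which serpins differ between the 2 epithelial fractions. Changes are log2 fold changes ± SE from edgeR's quasi-likelihood test on TMM-scaled counts, with a call at an adjusted p under 0.05, and levels beside them are TMM-normalised CPM. The low-count filter left 17 of 51 members. In crypts 1 was higher and 6 lower, against a background of 19.3% of all 18207 tested genes higher and 19.3% lower. The median over the 17 was -0.30, and 0.017 over all tested genes. Serpinb1a fell by 0.41 on the log2 scale (SE 0.04, adjusted p = 5.1e-06), with 463 and 468 TMM CPM in crypts against 620 and 620 in IEC. Serpinb6a fell by 0.55 (SE 0.053, adjusted p = 4.8e-06), with 132 and 141 against 201 and 199 TMM CPM. For neither gene did the libraries of the groups overlap, as for 33.2% of all tested genes in that direction. Scaling by total counts moved the median of all genes to 0.37 and the share of rises among all calls from 50.1 to 83.2%. Serpinb1a was then at -0.06 (adjusted p = 0.42), so its fall is relative to other genes. Summed enterocyte markers stood at 30810 to 31467 CPM in sham IEC against 6548 to 7034 CPM in sham crypts, with 11 of 11 lower in crypts. Markers of the crypt base did not all go the other way. Of 7 Paneth cell markers 5 were lower in the crypt fraction, with sums of 1835 to 1896 CPM against 3661 to 3896 CPM in IEC, and of 6 stem cell markers 2 were higher and 3 lower, with sums of 2353 to 2435 against 1609 to 1620 CPM. Goblet cell markers were lower in 5 of 6 cases and higher in 1. The part of these cell types in the result was not tested.

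Of 7 tested plasma serpins 3 were lower and 0 higher in sham crypts, beside 19.3% of all tested genes in each direction. Serpina1c and Serpina1e, copies of alpha-1-antitrypsin, the plasma inhibitor of neutrophil elastase, were 1.38 ± 0.16 and 1.30 ± 0.0547 TMM CPM (SD, n = 2) in IEC against 0.194 ± 0.067 and 0.117 ± 0.0417 in crypts (changes of -2.76 ± 0.50 and -3.48 ± 0.48, adjusted p = 0.00082 and 0.00011). Serpinf2 (alpha-2-antiplasmin, the inhibitor of plasmin) fell by 0.68 (SE 0.24, adjusted p = 0.042) and Serpini1, an inhibitor of tissue plasminogen activator, by 1.31 (SE 0.37, adjusted p = 0.014). Serpinb9 alone was higher in crypts, by 0.57 ± 0.19 (adjusted p = 0.031). DESeq2 did not call Serpinf2 or Serpinb9 (adjusted p = 0.11 and 0.13). The call of Serpinb9 also ended without replicate 1 of sham IEC or without either sham crypt library, that of Serpinf2 without any 1 of the 4 sham libraries, by total counts (adjusted p = 0.28) or with no low-count filter (adjusted p = 0.054), and that of Serpini1 without replicate 2 of sham IEC or replicate 1 of sham crypts. Serpina1b was not past the threshold here, at -0.30 ± 0.15 (adjusted p = 0.14).

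**Figure D2:**
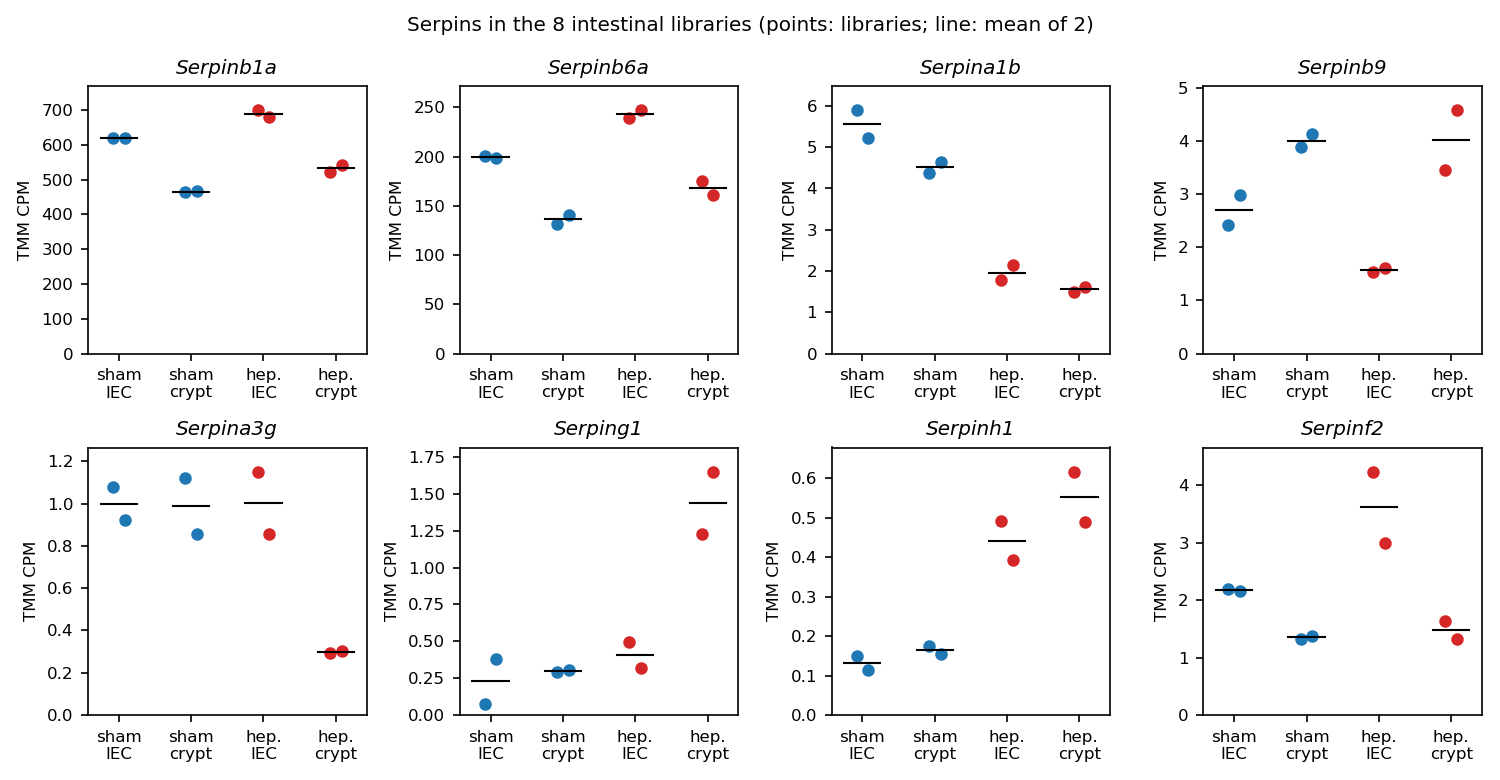
TMM-normalised CPM (vertical axes from 0) of 8 serpins in the 8 intestinal libraries, with points for libraries and a line for the mean of the 2 libraries of a group, blue for sham and red for hepatectomy. Serpina1b is lower in all 4 hepatectomy libraries than in all 4 sham libraries, and Serpina3g is low only in the 2 hepatectomy crypt libraries.

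Hepatectomy against sham asks which serpins of the gut differ after loss of liver tissue. In crypts, 4 of the 17 tested members rose and 2 fell, beside 19.2% and 18.3% of all tested genes. In IEC, 4 rose and 2 fell, beside 19.5% and 18.3%. The medians over the 17 were 0.12 in crypts and 0.28 in IEC, against 0.007 and 0.024 over all tested genes. Serpina1b (chromosome 12, 103728156 to 103830373, minus strand) had the smallest p of the members in both fractions. It stood at 5.89 and 5.21 TMM CPM in IEC of sham mice and at 1.77 and 2.14 after hepatectomy. In crypts it was 4.38 and 4.65 in sham and 1.5 and 1.61 after hepatectomy. No hepatectomy library reached the lowest sham library. Groups parted in this direction for 34.5% of all tested genes in crypts and 32.7% in IEC. The gene fell by 1.54 (SE 0.17, adjusted p = 2.3e-05) in crypts and by 1.51 (SE 0.17, adjusted p = 2.1e-05) in IEC, and both calls held in all 15 alternatives run. Paneth cell markers mostly fell beside it in both fractions, and goblet cell markers fell in crypts. In crypts 7 of 7 Paneth cell markers fell, from sums of 1835 to 1896 CPM in sham to 640 to 650 CPM, and 6 of 6 goblet cell markers, from 6744 to 7204 CPM to 2378 to 2469 CPM. In IEC 6 of 7 Paneth cell markers fell and 1 rose, from sums of 3661 to 3896 CPM in sham to 2075 to 2091 CPM. Of 6 goblet cell markers 2 fell and 3 rose in IEC, with sums of 6506 to 6802 CPM in sham and 6944 to 7014 CPM after hepatectomy. Their part in the changes of serpins after hepatectomy was not tested.

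Reads of Serpina1b may come from its neighbours, since its annotated model spans Serpina1d and the predicted genes Gm17042, Gm17043 and Gm8893, and the 5 copies are 91.4 to 96.7% identical in coding sequence. Summed over the 5 copies, the change was -1.1 ± 0.14 (adjusted p = 6.6e-05) in crypts and -0.45 ± 0.12 (adjusted p = 0.012) in IEC. The difference between these summed effects was -0.66 ± 0.18 (adjusted p = 0.027), whereas that of Serpina1b alone was -0.03 ± 0.24 (adjusted p = 0.95). In IEC the other copies did not move with it: Serpina1c was 2.28 ± 0.446 against 1.38 ± 0.16 TMM CPM (0.73 ± 0.37, adjusted p = 0.15) and Serpina1e 1.73 ± 0.223 against 1.30 ± 0.0547 (0.41 ± 0.34, adjusted p = 0.39).

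The 2 abundant clade B members rose slightly in both fractions under TMM scaling. In crypts Serpinb1a went from 463 and 468 to 522 and 542 TMM CPM (0.19 ± 0.04, adjusted p = 0.0024), and in IEC from 620 and 620 to 699 and 680 (0.15 ± 0.04, adjusted p = 0.0095). Serpinb6a went from 132 and 141 to 175 and 161 in crypts (0.30 ± 0.052, adjusted p = 0.00084) and from 201 and 199 to 239 and 247 in IEC (0.28 ± 0.052, adjusted p = 0.00098). The groups did not overlap in any of these, which held upwards for 34.6% of all tested genes in crypts and 35.3% in IEC, but the direction rests on the scaling. By total counts the median of all genes moved to -0.31 in crypts and -0.19 in IEC, the share of rises among all calls fell from 51.2 to 15.9% and from 51.5 to 25.6%, and Serpinb1a turned to -0.13 (adjusted p = 0.076) in crypts and -0.06 (adjusted p = 0.42) in IEC. Serpinb6a turned to -0.02 (adjusted p = 0.79) in crypts and stood at 0.07 (adjusted p = 0.42) in IEC. The call of Serpinb1a in IEC was also lost without the low-count filter (adjusted p = 0.16) and without either sham IEC library, replicate 1 of sham crypts or replicate 1 of hepatectomy IEC. Enterocyte markers rose in 11 of 11 cases in both fractions, to 12896 to 13135 CPM in hepatectomy crypts and 64352 to 68376 CPM in hepatectomy IEC, and their part in these small rises was not tested.

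Members near the limit of detection changed as well. Serping1, the C1 inhibitor of complement and of kallikrein, rose in crypts from 0.294 and 0.307 to 1.23 and 1.65 TMM CPM (2.25 ± 0.45, adjusted p = 0.0021), in all 15 alternatives run. In IEC it was 0.492 and 0.321 against 0.0746 and 0.383 TMM CPM (0.84 ± 0.62, adjusted p = 0.32), and the difference between fractions was not past the threshold (1.42 ± 0.80, adjusted p = 0.25). Serpinh1, which lies below the level set for naming and is named after its values were seen, rose from 0.176 and 0.154 to 0.616 and 0.489 TMM CPM in crypts (1.72 ± 0.47, adjusted p = 0.013) and from 0.149 and 0.115 to 0.492 and 0.392 in IEC (1.72 ± 0.56, adjusted p = 0.03). DESeq2 called neither (adjusted p = 0.091 and 0.14). The crypt call was lost without either sham crypt library or replicate 1 of hepatectomy crypts, and the IEC call without any of the 4 IEC libraries or either sham crypt library. Total-count scaling (adjusted p = 0.055) and the fit with no low-count filter (adjusted p = 0.068) also ended the IEC call.

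Fibroblast markers summed to 8.04 to 8.95 CPM in hepatectomy crypts against 3.79 to 4.28 CPM in sham crypts, with 3 of the 6 tested higher and 1 lower and 0 of the 8 at 0. Of 11 tested genes for collagens and their folding, on which Serpinh1 acts, 6 rose and 1 fell in crypts. Of these P4hb, a folding enzyme with many other clients, went from 1351 to 1716 TMM CPM (0.35 ± 0.036, adjusted p = 1.7e-05), while the 5 collagen genes that rose stood at 1.16 TMM CPM or less. Olfactory receptor genes, most of which are taken to be silent in gut epithelium, summed to 149 to 154 CPM in hepatectomy crypts against 61.7 to 67.8 in sham crypts. In IEC they summed to 122 to 130 against 68.3 to 78.7 CPM. The part of fibroblast RNA and of this background in the rises of Serping1 and Serpinh1 was not tested.

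In IEC, Serpinf2 rose from 2.20 and 2.15 to 4.23 and 3 TMM CPM (0.74 ± 0.22, adjusted p = 0.021) and Serpinb9 fell by 0.78 (SE 0.22, adjusted p = 0.015), from 2.42 and 2.99 to 1.54 and 1.61. DESeq2 (adjusted p = 0.073) and total-count scaling (adjusted p = 0.077) ended the call of Serpinf2, as did leaving out either sham IEC library or replicate 1 of hepatectomy IEC, and without replicate 2 of sham IEC or replicate 1 of hepatectomy IEC that of Serpinb9 was lost. In crypts neither was past the threshold, at 0.12 ± 0.24 (adjusted p = 0.73) for Serpinf2 and 0.01 ± 0.17 (adjusted p = 0.96) for Serpinb9. The differences between fractions were -0.62 ± 0.33 (adjusted p = 0.23) and 0.79 ± 0.28 (adjusted p = 0.067), so neither effect was shown to differ.

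Serpina3g, a clade A member without a classical secretion signal that activated T cells express, is named after its values were seen, as it fell just short of the level set for naming. It stood at 1.12 and 0.856 TMM CPM in sham crypts and at 0.294 and 0.303 in hepatectomy crypts, a fall of 1.70 (SE 0.36, adjusted p = 0.0031). In IEC it was 1.08 and 0.92 in sham and 1.15 and 0.856 after hepatectomy (0.01 ± 0.33, adjusted p = 0.99). The effect in crypts minus that in IEC was -1.71 ± 0.49 (adjusted p = 0.031), the single call among 17 members, where 10.1% of all tested genes were called in that direction and 9.15% in the other. T and NK cell markers also fell in crypts, in 9 of 10 cases. Their summed level there was 110 to 113 CPM in sham and 31.3 to 32.9 CPM after hepatectomy, with none at 0 in either group. In IEC, where Serpina3g was not past the threshold, 6 of 10 of these markers fell, with sums from 109 to between 64 and 65.3 CPM. The part of these cells was not tested. Granule proteases, some of which clade B serpins inhibit, fell in 6 of 7 tested cases in crypts, beside 18.3% of all tested genes. Among them were Gzma, from 34.6 to 14.3 TMM CPM (-1.28 ± 0.09, adjusted p = 5.1e-07), and Gzmb, the target of Serpinb9, from 18.5 to 5.64 (-1.70 ± 0.12, adjusted p = 4.2e-07). Mcpt1, a mast cell chymase, went from 16.1 to 0.544 (-4.95 ± 0.25, adjusted p = 2.7e-08). In IEC Gzma, Mcpt1 and Mcpt2 were called lower and the other tested ones were not. Gzmb was among the latter, at -0.26 ± 0.12 (adjusted p = 0.094).

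In the libraries labelled liver day 20 the family had another make-up. All 63 members summed to 42618 to 43715 CPM, against 740 to 857 CPM at day 0, 738 to 2411 CPM at day 10 and 710 to 821 CPM in the intestine. Clade A made up 89.0 to 89.2% of that sum, and 16 plasma serpins 99.4%. Serpina1c stood at 9057, 8818 and 8982 CPM, Serpina3k (contrapsin, an inhibitor of trypsin-like proteases) at 7838, 7849 and 8054 CPM, and Serpinc1 (antithrombin) at 2514, 2404 and 2558 CPM. Per kilobase of merged exons the order was Serpina1c at 6578 ± 89.6 CPM (SD, n = 3), Serpina1d at 3928 ± 85.9 and Serpina3k at 3847 ± 59.1. The difference between Serpina1d and Serpina3k was within the SD of the former. Serpina1e and Serpina1a followed at 2696 ± 47 and 2637 ± 40.1, with SDs that meet, and Serpina1b stood lower at 2342 ± 33.6. Serpinf1, for contrast, was 667 to 697 CPM.

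Day 20 held 22 members that no intestinal group held, of which Serpina11 was not analysed in the intestine. Besides the plasma inhibitors these include Serpina6 (corticosteroid-binding globulin) and Serpina7 (thyroxine-binding globulin), both hormone carriers, Serpina12 (vaspin, a kallikrein 7 inhibitor), Serpine2 (protease nexin-1, an inhibitor of thrombin and urokinase) and Serpinh1. Some of the 22 lay just under the limit in the intestine. Serpinc1 stood at 0.597 to 1.09 CPM there, and every intestinal group held it at 0.5 CPM. At 0.5 CPM both sham groups also held Serpina9, sham crypts held Serpine2, and sham crypts and hepatectomy IEC held Serpinb6b. Of the 63, 9 were held by day 20 and by no other group: Serpina3b, Serpina3c, Serpina3f, Serpina3h, Serpina3i, Serpina7, Serpina9, Serpinb6b and Serpinb8. Serpina7 was the highest of them, at 55.4, 58.8 and 58.3 CPM, against 0.218 to 0.800 at day 0 and 0.633, 1.42 and 4.94 at day 10. Serpina3h, annotated as a transcribed pseudogene, stood at 25.1, 21.1 and 23.8 CPM and Serpina3f at 23.2, 20.8 and 22 CPM. Serpina3k stood at 7838 to 8054 CPM in the same libraries, and Serpina3 genes are up to 91.1% identical in coding sequence. The part of reads from abundant copies in the counts of the low Serpina3 members was not tested. Serpina9 barely met the rule, with 2.34 to 3.54 CPM at day 20 and 0.772 to 1.74 at day 0, and Serpinb6b, at 2.56 to 3.59 CPM, was matched by replicate 3 of day 10 with 2.59. Serpinb1b, Serpinb1c, Serpinb5 and Serpini1 were held at day 0 or day 10 and not at day 20.

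The 5 Serpina1 copies lie within 1 cluster on chromosome 12, and they are the members that are highest as a group at day 20, at 67.3 to 67.8% of the serpin CPM. Stretches upstream of their starts are shown because the copies rose together, beside Serpinb6a, which was lower at day 20 (RefSeq promoter table, GRCm38.p6, all on the minus strand and written 5′ to 3′ along the gene). In the Serpina1 stretches capitals mark GTTAAT, core letters of sites of the hepatocyte factor HNF1, and TGTTTGC, a core of forkhead (FOXA) sites, both searched on either strand. In Serpinb6a they mark GGGCGG read on the opposite strand, the GC box core of many housekeeping promoters. Each stretch ends at the last base before the start given by that RefSeq table, except that of Serpina1e, which ends 42 bases before it. The stretches of Serpina1b and Serpina1e lie inside their GENCODE gene spans (103728156 to 103830373 and 103946931 to 103958975). The RefSeq and GENCODE annotations thus place these starts differently.
Serpina1a, chr12:103863620-103863724: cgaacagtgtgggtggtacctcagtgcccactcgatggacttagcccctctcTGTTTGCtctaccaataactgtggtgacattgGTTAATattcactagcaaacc
Serpina1b, chr12:103738190-103738299: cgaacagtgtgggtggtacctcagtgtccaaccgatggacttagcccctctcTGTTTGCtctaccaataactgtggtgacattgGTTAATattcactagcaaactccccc
Serpina1c, chr12:103904951-103905061: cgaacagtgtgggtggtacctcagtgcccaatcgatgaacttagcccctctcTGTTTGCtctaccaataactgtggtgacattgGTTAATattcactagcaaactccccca
Serpina1d, chr12:103773634-103773733: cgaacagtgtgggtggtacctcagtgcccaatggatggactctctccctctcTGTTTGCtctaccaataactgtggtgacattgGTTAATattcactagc
Serpina1e, chr12:103956940-103957059: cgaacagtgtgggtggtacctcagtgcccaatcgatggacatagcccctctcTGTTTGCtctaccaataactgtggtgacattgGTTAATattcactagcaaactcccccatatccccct
Serpinb6a, chr13:34002795-34002901: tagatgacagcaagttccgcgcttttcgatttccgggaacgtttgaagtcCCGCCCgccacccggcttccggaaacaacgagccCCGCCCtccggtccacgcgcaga

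Over the first 100 bases shown, 90 are the same in all 5 Serpina1 copies. GTTAAT was found in 7.1% of all 32851 windows in the table (250 bases before to 50 after a start), TGTTTGC in 5.07% and GGGCGG in 35.7%. Of the 53 members with a window, 11 held GTTAAT, 9 held TGTTTGC and 8 held GGGCGG. Such matches describe letters, not bound sites. The 5 copies share both motifs, yet in the intestine their levels did not keep the shares of day 20. At day 20 Serpina1c took 30.5 to 30.7% and Serpina1b 19.3 to 19.4% of the CPM of the 5 copies. In sham crypts Serpina1b took 92.0 to 92.6% and in sham IEC 62.7 to 65.3%, while Serpina1a, at 16.4 to 16.5% at day 20, took 2.76% or less. After hepatectomy IEC lay nearer to day 20, with Serpina1b at 28.9 to 32.6% and Serpina1c at 29.9 to 42.2%, while in crypts Serpina1b took 62.2 to 74.2%, and Serpina1a took at most 3.66% in either. The intestinal shares rest on 2.13 to 8.78 CPM in all and come from a file type counted separately, so they were not tested against day 20.

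**Figure D3:**
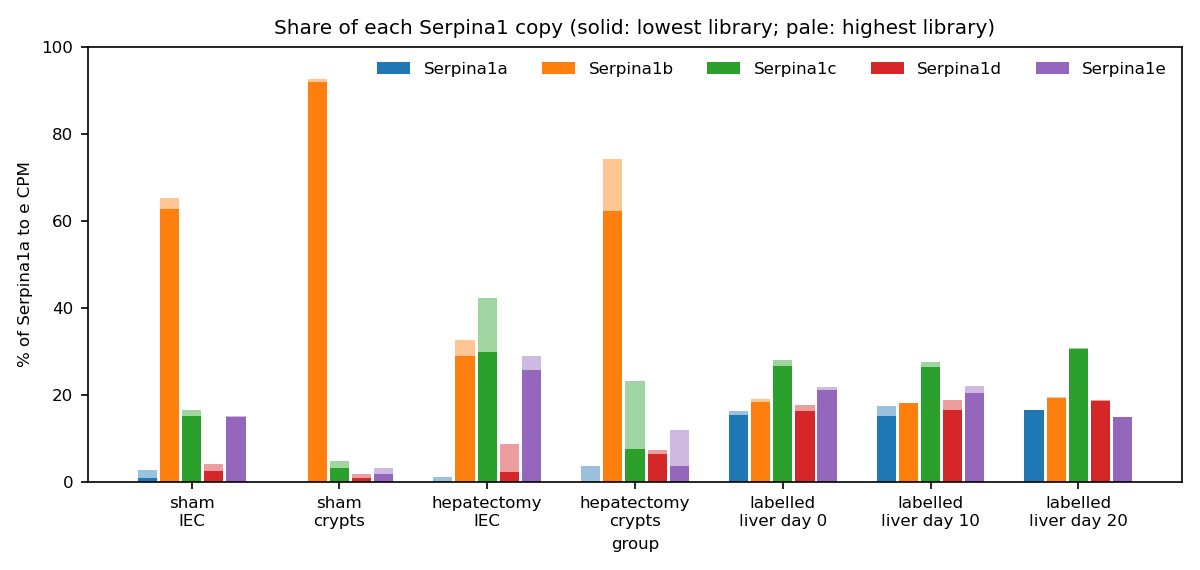
Share of each copy (vertical axis, % of the CPM of Serpina1a to Serpina1e) in the 7 groups, with solid bars to the lowest and pale bars to the highest library of a group. Serpina1b has the tallest bar in sham IEC and in both crypt groups, while in the libraries labelled liver the tallest bar is Serpina1c and the 5 shares lie between 14.9 and 30.7%.

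The comparison of day 20 with day 0 sets libraries with hepatocyte content against libraries with crypt content, and its sizes are read as such. Of 63 members 38 passed the low-count filter, some through day 20 alone, so the counts are a description. At day 20, 30 were higher and 6 lower, beside 33.3% and 38.1% of all 16694 tested genes, and the median was 6.57 against -0.164. Against day 10, 30 were higher and 7 lower, beside 30.8% and 40.3%, with a median of 5.67 against -0.206. By total counts the medians of all genes were -1.07 and -1.17, and rises made up 25.6 and 19.1% of all calls in place of 46.7 and 43.4%. All 36 calls against day 0 held in every alternative that tested the gene, and 34 of the 37 calls against day 10 did. The libraries of day 20 and day 0 did not overlap for any of the 36, as for 37% of all tested genes upwards and 41.5% downwards. Levels below are CPM and changes are on the TMM scale, which lies above the CPM scale at day 20, so that a change can exceed the ratio of the CPM values.

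All 16 plasma serpins rose from day 0 to day 20, by 5.32 to 7.78. Serpina12, outside that list, had the largest change of the 38, from 0.681, 0.497 and 0.703 CPM to 119, 116 and 114 CPM (8.43 ± 0.34, adjusted p = 1.9e-10). Serpinc1 went from 18.8, 27.3 and 26.2 to 2514, 2404 and 2558 CPM (7.61 ± 0.46, adjusted p = 5.7e-09). Serpina3n, an acute-phase inhibitor, and Serpina10, which inhibits factor Xa with protein Z, rose least among the plasma serpins, by 5.32 ± 0.39 and 5.76 ± 0.32. Among other secreted or matrix members, Serpine2 rose from 1.53, 1.88 and 1.61 to 9.31, 11.4 and 10.8 CPM (3.56 ± 0.30, adjusted p = 1.5e-07), and Serpinh1 from 0.218, 0.193 and 0.268 to 11.3, 10.1 and 12.8 CPM (6.54 ± 0.30, adjusted p = 5.6e-10). Fibroblast markers stood at 212 to 229 CPM at day 20 and 3.24 to 5.49 CPM at day 0, and their part in the rise of Serpinh1 was not tested.

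Clade B went mostly the other way. Serpinb1a was 285, 242 and 237 CPM at day 0 and 8.73, 9.04 and 8.84 CPM at day 20, and fell by 3.95 (SE 0.20, adjusted p = 1.2e-09). Serpinb6a was 101, 89.8 and 92.1 CPM against 7.86, 7.85 and 6.35 CPM, and fell by 2.78 (SE 0.16, adjusted p = 4.4e-09). Serpinb1b, Serpinb1c and Serpinb5, at 1.32 to 3.46 CPM at day 0, fell by 2.87, 2.46 and 5.60, and Serpinb6c was the last of the 6 to fall, named after its values were seen, from 0.79 to 1.08 CPM at day 0 to 0.0252 CPM or less. Serpinb8, a furin inhibitor, rose from 0.221 CPM or less to 3.42, 2.95 and 3.12 CPM (5.32 ± 0.79, adjusted p = 4.5e-05), and Serpinb6b rose by 4.50 ± 0.57 (adjusted p = 9.6e-06). Serpinb9 was 13.9, 13.5 and 15.7 CPM at day 0 and 8.95, 9.37 and 9.09 CPM at day 20. Under TMM scaling that is 11.7 ± 0.951 against 14 ± 0.35 TMM CPM (0.25 ± 0.17, adjusted p = 0.20), so the direction differs between the scales and no change was called. Against day 10, at 5.17, 5.01 and 9.57 CPM, it rose by 1.47 ± 0.18 (adjusted p = 8.5e-06), a call that total-count scaling ended (adjusted p = 0.1). Serpini1 fell from 1.3, 1.8 and 3.14 CPM at day 10 to 0.227 CPM or less (-2.89 ± 0.77, adjusted p = 0.0044).

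**Figure D4:**
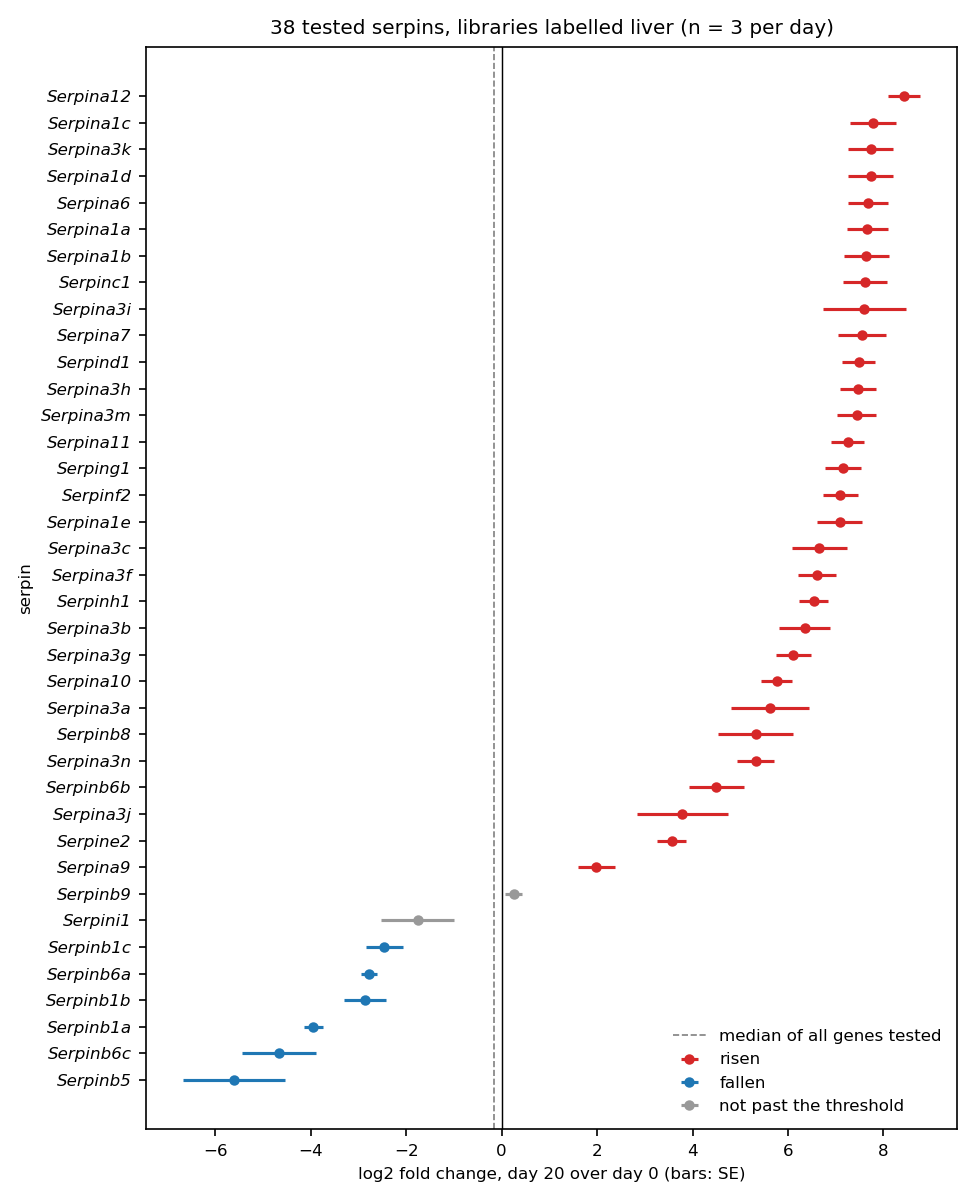
Log2 fold change of day 20 over day 0 (horizontal axis, bars are SE) for the 38 tested serpins, ordered by size, with red for risen, blue for fallen and grey for not past the threshold. All 22 tested clade A members lie to the right of 0, from 1.98 for Serpina9 to 8.43 for Serpina12, and 6 clade B members lie to the left.

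Neighbouring genes of the same pathways followed the secreted members. The counts below stand beside 33.3% of all tested genes that rose and 38.1% that fell at day 20 against day 0. Of the coagulation and fibrinolysis proteases 10 of 11 tested rose. Among them were F2 (prothrombin, whose active form Serpinc1 and Serpind1 inhibit), from 16.4 to 2902 TMM CPM (7.47 ± 0.39, adjusted p = 1.6e-09), and Proc (protein C, an anticoagulant protease), from 6.19 to 1098 (7.47 ± 0.36, adjusted p = 8.6e-10), while Plat (tissue plasminogen activator) was 1.03 against 1.39 TMM CPM (adjusted p = 0.36). All 6 proteases of the complement C1 and lectin pathways, targets of Serping1, rose, among them C1s1 from 2.78 to 497 TMM CPM (7.48 ± 0.34, adjusted p = 5.1e-10). Of the membrane serine proteases of epithelia 7 of 9 fell, such as St14 (matriptase) from 306 to 2.53 TMM CPM (-6.91 ± 0.22, adjusted p = 8.9e-11), while Hpn (hepsin) and Tmprss6, both of hepatocytes, rose. Among 20 tested inhibitors of other families 14 rose and 5 fell. The risen ones include Ambp, from 29.1 to 4000 TMM CPM, and the fallen ones the epithelial Kunitz inhibitor Spint1, from 189 to 2.49 TMM CPM. Of 14 genes for clearance and cofactors of serpins 12 rose and 1 fell, with Lrp1, an uptake receptor for serpin and protease complexes, going from 16.6 to 555 TMM CPM (5.06 ± 0.19, adjusted p = 1.3e-10).

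Relative to Alb most of the 16 plasma serpins lay, at day 0 and day 10, within 1.5 times of their day 20 level. The 16, listed as known liver products, are Serpina1a to Serpina1e, Serpina3k, Serpina3m, Serpina3n, Serpina6, Serpina7, Serpina10, Serpina11, Serpinc1, Serpind1, Serpinf2 and Serping1. Per 1000 CPM of Alb, 14 of the 16 had a mean ratio at day 0 within 1.5 times of that at day 20, and 14 did at day 10. The median of the 16 ratios was 0.885 of the day 20 value at day 0 and 0.956 at day 10, and the lowest were 0.748 and 0.722. Serpinc1 was 57.6 ± 2.71 per 1000 of Alb at day 0 (SD, n = 3), 52.4 ± 1.8 at day 10 and 68.2 ± 5.05 at day 20, while its CPM at day 0 was 0.967% of that at day 20. The exceptions among the 16 were Serpina3n, at 16.4 ± 2.11, 15.9 ± 2.5 and 4.03 ± 0.245, and Serpina10, at 10.7 ± 0.543, 6.14 ± 0.533 and 3.53 ± 0.117. Their ratios were 4.05 and 3.02 times the day 20 value at day 0, and 3.95 and 1.74 times at day 10. For both, no library of day 0 or day 10 came down to a day 20 library. Day 20 also parted from the other days, by less, for Serpina1a to Serpina1e, Serpina3k, Serpinc1 and Serpind1. Of these Serpina1e alone was lower at day 20. Serpina1c was 173 to 186 at day 0 and day 10 against 233 to 258 at day 20. Serpinc1 was 50.4 to 60.7 at day 0 and day 10 against 63.4 to 73.5 at day 20, and Serpina1e 134 to 149 against 113 to 126. Several clade A members outside the list, all low at day 0, were less level. At day 0 the ratio was 0.495 of the day 20 value for Serpina12, 1.75 for Serpina3f, 1.77 for Serpina3c, 1.94 for Serpina3b and 2.36 for Serpina3g, while Serpina3h was at 0.875. At day 10 Serpina3c stood at 3.86 and the other 5 between 0.731 and 1.5. These are descriptions with no test. Serpinb1a, by contrast, stood at 641 ± 243, 299 ± 136 and 0.242 ± 0.0101 per 1000 of Alb.

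**Figure D5:**
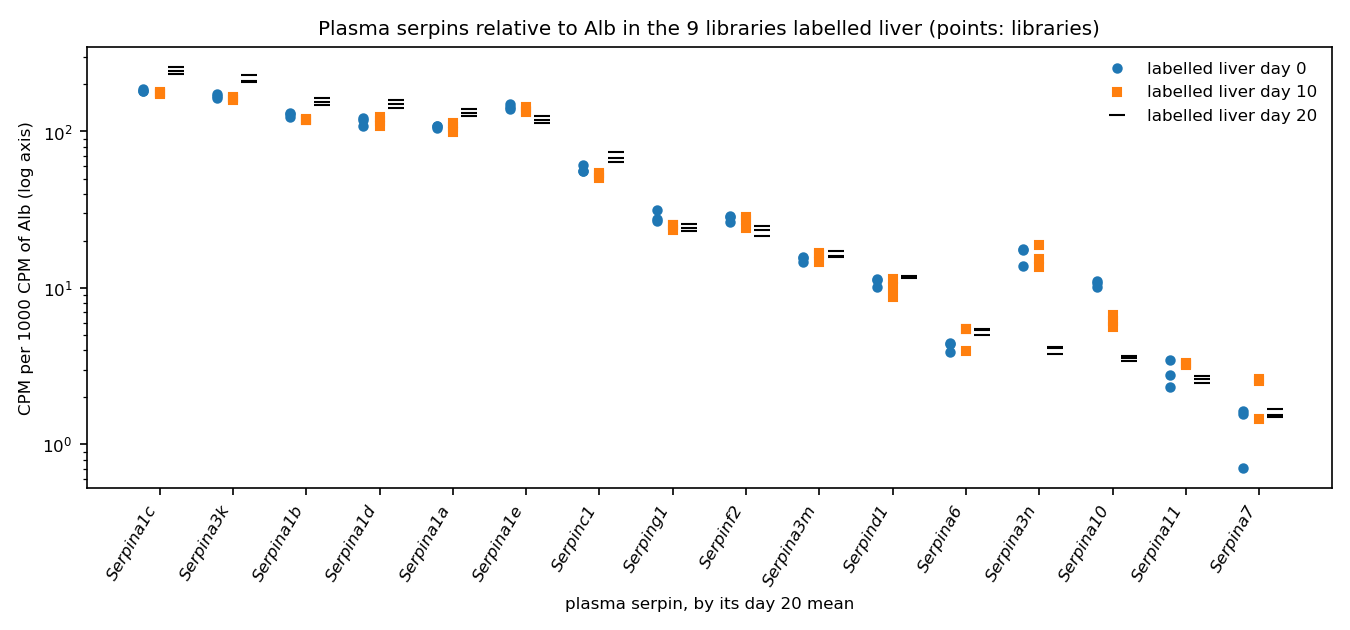
CPM of the 16 plasma serpins per 1000 CPM of Alb (log axis) in the 9 libraries labelled liver, with circles for day 0, squares for day 10 and dashes for day 20. The 3 days lie close together for most members, while Serpina3n and Serpina10 lie higher at day 0 and day 10 than at day 20.

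Between day 0 and day 10, 22 of the 38 tested members rose and 1 fell, beside 24.7% and 18.8% of all tested genes, and the median was 0.97 against 0.104. The transcripts of sex given above also differed between these days. Most of this rested on single libraries and settings. The rises numbered 6 without replicate 3 of day 10 (and the falls 4), 5, 11 and 11 without replicate 1, 2 or 3 of day 0, 2 when only these 2 days were fitted, 5 by total counts and 11 with paralogs summed. Among the 16 plasma serpins 15 rose, by 0.81 to 1.74, beside Alb at 1.03 ± 0.41 (adjusted p = 0.056). Serpina10, with 2.67, 3.76 and 10.7 CPM against 3.35, 5.41 and 4.72, was the other (0.17 ± 0.29, adjusted p = 0.65). The 5 Serpina1 copies were called singly (adjusted p = 0.03 to 0.048) and not as a sum (0.99 ± 0.40, adjusted p = 0.059). In replicate 3 of day 10 Serpina1c stood at 335 CPM against 79 and 97.2 in the others and 56.1 to 88.7 at day 0, so the groups overlapped with it and without it. Of the 22 rises, 11 had no overlap between the days, where 26.6% of all tested genes had none upwards and 25.3% downwards.

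Only 4 of the 23 calls held in every alternative that tested the gene: the rises of Serpinh1, Serpina12 and Serpina3i and the fall of Serpinb9. Serpinb9 was 5.17, 5.01 and 9.57 CPM at day 10 against 13.9, 13.5 and 15.7 at day 0, and fell by 1.22 (SE 0.18, adjusted p = 0.00096). Its target Gzmb was also called lower at day 10. Serpinh1 was 2.25, 1.21 and 2.98 CPM against 0.218, 0.193 and 0.268, without overlap (3.15 ± 0.31, adjusted p = 5e-05). Of 17 genes for collagens and their folding 10 rose beside it, where 24.7% of all tested genes rose. All 10 were collagens, at a mean of 1.63 TMM CPM or less at day 10. Some had an SD above the mean, as did Col1a1 at 1.63 ± 1.75. No folding gene was called. Fibroblast markers summed to 4.85 to 26.9 CPM against 3.24 to 5.49, and their part was not tested. Serpina12 was 1.02, 1.38 and 4.16 CPM against 0.497 to 0.703 (1.58 ± 0.34, adjusted p = 0.0055). Serpina3i, at 0.0276 CPM or less at day 0 and 0.176, 0.167 and 1.57 at day 10, is named after its values were seen and is too low for its size to be read. Serpinb1a and Serpinb6a were not past the threshold, at -0.26 ± 0.18 (adjusted p = 0.24) and 0.05 ± 0.15 (adjusted p = 0.82).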

How the data were processed

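RNA of 17 libraries was sequenced in bulk. Per the submitters' processing notes, the authors used STAR and Partek with mm10. Versions are not stated there. The deposited intestinal files list genes by symbol with expected counts, which were rounded here because 36.7% were fractional. Those labelled liver were deposited as whole counts per Entrez identifier, and no source used here names their counting program. Of 24594 identifiers 24570 were named through the RefSeq table, and 20 without a name, holding 3.93 to 22.1% of a library's counts, were kept in library totals. Whether strand was used in counting is not stated.

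The 8 intestinal and the 9 liver-labelled libraries were fitted separately, never together, in R 4.3.3 with edgeR 4.0.16 (TMM, filterByExpr at 10 counts and 15 in total, quasi-likelihood F test, Benjamini-Hochberg adjustment over all tested genes), in 7 comparisons. SE is the log2 fold change divided by the square root of F. Total counts of 12742629 to 43580050 per library set the precision, with 3 counts as the floor. Genes were named by rule: called members with a mean of at least 1 TMM CPM in the higher group, with values in every library above 5 CPM, members held by all or by 1 group, and up to 4 called and 2 other genes per list. The members, lists and rules were chosen with earlier results of these data known, so none is independent support. Coordinates and exon lengths are from GENCODE vM21, promoter windows from RefSeq, and coding sequences (in place of proteins, not used here) were aligned with Biopython 1.88. Each fit was repeated with DESeq2 1.42.0, with RLE size factors, without the filter, under a stricter one (1 CPM in every library of a group and a mean of 5 CPM), with the replicate block, with paralogs summed, with only the 2 groups compared and without each library in turn. Total-count scaling was chosen after seeing the data. The fits were tested on simulated data. Python 3.11.15 and matplotlib 3.10.9 made the figures.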

Additional observations from a re-analysis of the deposited data

Results flagged for a closer look

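Serpina3g differed between the 2 intestinal fractions in its response to hepatectomy: the log2 effect in crypts minus that in IEC was -1.71 ± 0.49 (edgeR adjusted p = 0.031), from a level near 1 TMM CPM in sham, and the interaction itself was tested. DESeq2 gave the gene no adjusted p here (-1.71 on the log2 scale, unadjusted p = 0.023). In the 12 alternatives that gave one it lay between 0.023 and 0.12, and 6 of them, each leaving out 1 library (either sham IEC library, replicate 1 of sham crypts, replicate 1 of hepatectomy IEC or either hepatectomy crypt library), ended the call.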

How the results depend on the processing

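Against day 0 at day 20 all 36 calls held under every alternative that tested the gene, and against day 10 34 of 37, with Serpinb6b, Serpinb9 and Serpina3a lost by total-count scaling. Calls held in all alternatives for 3 of 6 members in crypts after hepatectomy, 1 of 6 in IEC, 0 of 1 in the difference of those effects, 3 of 7 between sham fractions and 4 of 23 between day 0 and day 10. By total-count scaling Serpinb1a reversed to -0.13 in crypts and -0.06 in IEC, and Serpinb6a to -0.02 in crypts, and by that scaling the rises numbered 2 in crypts, 0 in IEC (with 2 at an unadjusted p under 0.05), 2 in sham crypts against IEC and 5 at day 10. With no filter the rises were 9 in crypts and 2 in IEC, and the falls at day 20 against day 10 were 20. The stricter filter, which tests fewer genes, left 2 rises and 1 fall in crypts and the same in IEC, 0 falls in their difference, 0 rises and 2 falls between sham fractions (0 of either at an unadjusted p under 0.05 where 0 were called), and 2 falls at day 20 against either earlier day. DESeq2 gave 2 rises in IEC, and 0 falls in the difference and 0 rises between sham fractions, each with 1 at an unadjusted p under 0.05. In the difference it gave 10 of the 17 members no adjusted p, Serpina3g among them. With paralogs summed, which tests fewer features, there were 1 fall in crypts, 1 fall in IEC, 0 rises between sham fractions (Serpinb9 is then part of a sum), 11 rises and 0 falls at day 10, and 15 and 16 rises at day 20 against day 0 and day 10. With only the 2 days fitted, 2 members rose at day 10. In other cases the cause was not tested.

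Leaving out 1 library gave 3 to 5 rises and 2 to 3 falls in crypts, 1 to 4 and 1 to 2 in IEC, 0 to 1 and 0 to 1 in their difference, 0 to 1 and 4 to 6 between sham fractions, 5 to 28 and 1 to 4 at day 10, 30 to 30 and 6 to 7 at day 20 against day 0, and 30 to 31 and 7 to 11 against day 10. The rises in IEC numbered 1 without either sham IEC library or replicate 1 of hepatectomy IEC and 2 without replicate 1 of sham crypts, and the falls against day 10 numbered 11 without replicate 2 of day 0, replicate 1 of day 10 or replicate 2 of day 20. Where 1 library is left in a group, it is assumed to vary like the others. At 0.5 CPM sham crypts held 11 members. At 5 CPM sham IEC and sham crypts held 3 each, hepatectomy IEC and crypts 2 each, day 0 held 12 and day 10 held 14.

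Whether replicate numbers pair the samples is not stated. Deviations of same-numbered libraries from their group means correlated by -0.0161 to 0.028 in the intestine and -0.0301 to 0.0422 in the libraries labelled liver. With 2 libraries in an intestinal group the deviations mirror each other. Such values cannot decide whether same-numbered libraries share a mouse. With the replicate block 4 members rose and 2 fell in crypts and in IEC, 16 rose at day 10 against 22 without it, and 30 rose at day 20 against day 0.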
